A study of Saccharomyces cerevisiae with 11 samples.

Results

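The comparison set 1 library of budding yeast (Saccharomyces cerevisiae), RD1, against RD5 and RD6, 2 further libraries that carry the same genotype label, RD. Expression was deposited as FPKM, a count of fragments corrected for gene length and for the size of the library. Members were the rows of the table that holds these libraries whose mean over RD1, RD5 and RD6 was at least 1 scaled FPKM, and 5885 of 5931 rows qualified. The 3 libraries are part of 11 in the series, which also holds GD and SD strains with 3 libraries each and the wild-type libraries control and ControlSYN3. ControlSYN3 shares the table with the RD libraries and is used as a reference level. The title concerns essential genes placed in clusters, and tags recoded within the synthetic genes served to separate their transcripts from wild-type ones. The labels do not spell out GD, SD or RD, give no mating type, auxotrophy, medium or growth phase, and do not say whether RD1, RD5 and RD6 came from separate strains or cultures. The columns of the table are headed MD1, MD5 and MD6, and their link to RD1, RD5 and RD6 rests on the shared numbers, an inference from the names.

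Haploid budding yeast occurs in the mating types a and alpha. Cells of type a transcribe the genes for a-factor, its exporter and the receptor for alpha-factor, whereas alpha cells transcribe the genes for alpha-factor and the receptor for a-factor. In alpha cells the repressor alpha2, bound together with the general factor Mcm1, shuts off the a-specific genes, and the activator alpha1 with Mcm1 turns on the alpha-specific ones. Many other yeast genes follow nutrients: amino acid enzymes are controlled by Gcn4 and by pathway regulators, iron uptake genes by Aft1, and ribosomal protein genes are transcribed most in rapidly growing cells.

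RD1 differed from RD5 and RD6 far more than RD5 differed from RD6. A row was counted as past 2-fold where RD1 was at least 2-fold above, or at least 2-fold below, both RD5 and RD6 after 1 FPKM was added to each scaled value. By this rule 395 rows were higher in RD1, which is 6.71% of those examined, and 276 rows were lower, which is 4.69%, so 11.4% were past 2-fold in either direction. Counts for gene lists below are to be read beside these shares. RD5 and RD6 were at least 2-fold apart in 21 rows, or 0.357%. The median size of the log2 difference was 0.33 between RD1 and RD5, 0.35 between RD1 and RD6 and 0.11 between RD5 and RD6, and its 95th percentile was 1.63, 1.81 and 0.43 for the same pairs. Of the higher rows, 95 were past 4-fold, 39 past 8-fold and 23 past 16-fold, and of the lower rows these numbers were 18, 5 and 4. These are counts of rows and include rows that share a value, such as the ASP3 copies described below. In the table as a whole, 32 rows above 0 equal another row in all 4 libraries. The median log2 ratio over all rows was -0.00114. The scaling sets this median near 0 by design, so it cannot show whether the libraries differed by a general shift. RD1 is a single library without a spread of its own, so sizes are given and no test was made. All log2 ratios below are those of RD1 over the mean of RD5 and RD6, on scaled FPKM with 1 FPKM added, which understates the ratios of weakly expressed genes.

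At the thresholds, ECM11 had a mean of 1.03 scaled FPKM, just inside the minimum, and YGL118C a mean of 0.995, just outside. AHA1, a co-chaperone gene, was the row nearest to 2-fold among the higher ones, at 386 scaled FPKM in RD1 and 175 and 193 in RD5 and RD6. TEA1, whose smaller log2 difference was 0.998, did not count. On the lower side YIL082W-A was just inside, at 31.7 scaled FPKM in RD1 and 66.8 and 64.5 in RD5 and RD6, and UTP22 just outside with a difference of -0.998.

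**Figure D1:**
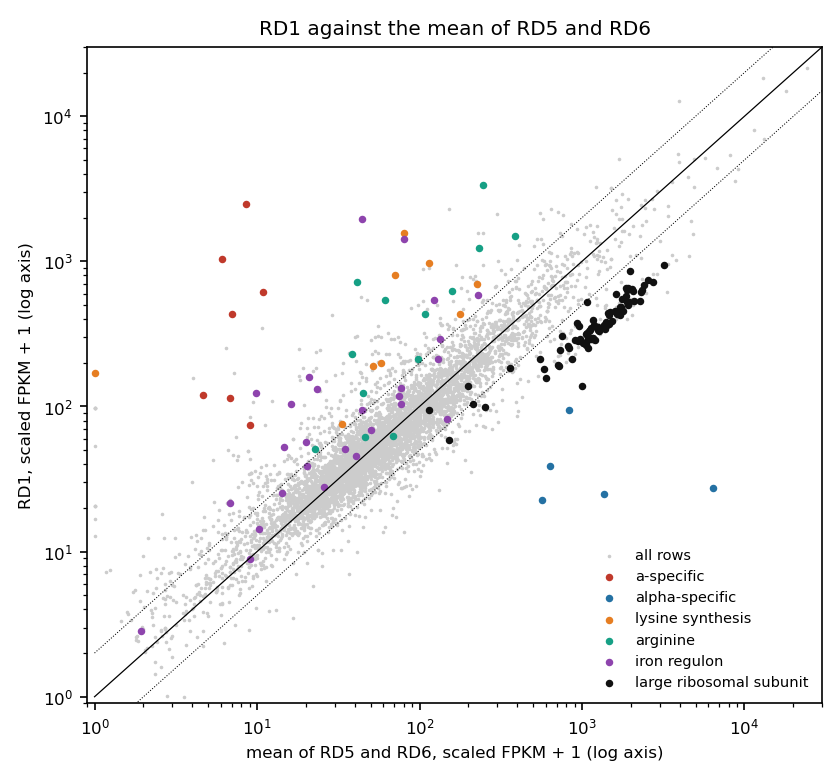
Scaled FPKM plus 1 in RD1 (vertical) against the mean of RD5 and RD6 (horizontal), both on log axes, for the 5885 rows; grey points are all rows, colours mark 6 gene lists, the solid line is equality and the dotted lines are 2-fold. The 7 a-specific genes lie high above the upper dotted line, the 5 alpha-specific genes far below the lower one, and most large-subunit ribosomal protein genes form a band below it.

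The genes that mark mating type differed most. All 7 a-specific genes were higher in RD1 and all 5 alpha-specific genes were lower, and the median log2 ratio was 5.81 for the first list and -4.64 for the second. Summed over the list, the a-specific genes gave 4864 scaled FPKM in RD1, 46.3 in RD5, 46.1 in RD6 and 75.9 in ControlSYN3. The alpha-specific genes summed to 203 scaled FPKM in RD1, 9997 in RD5, 9513 in RD6 and 8407 in ControlSYN3. ControlSYN3 thus stood with RD5 and RD6 and apart from RD1 in both lists, as the plot of the 12 mating genes shows. It was within 2-fold of the mean of RD5 and RD6 in 4 of 7 a-specific and 5 of 5 alpha-specific genes, and within 2-fold of RD1 in 0 of either list. RD5 and RD6 differed by at most 0.49 (log2) in any a-specific gene and by at most 0.22 in any alpha-specific gene.

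**Figure D2:**
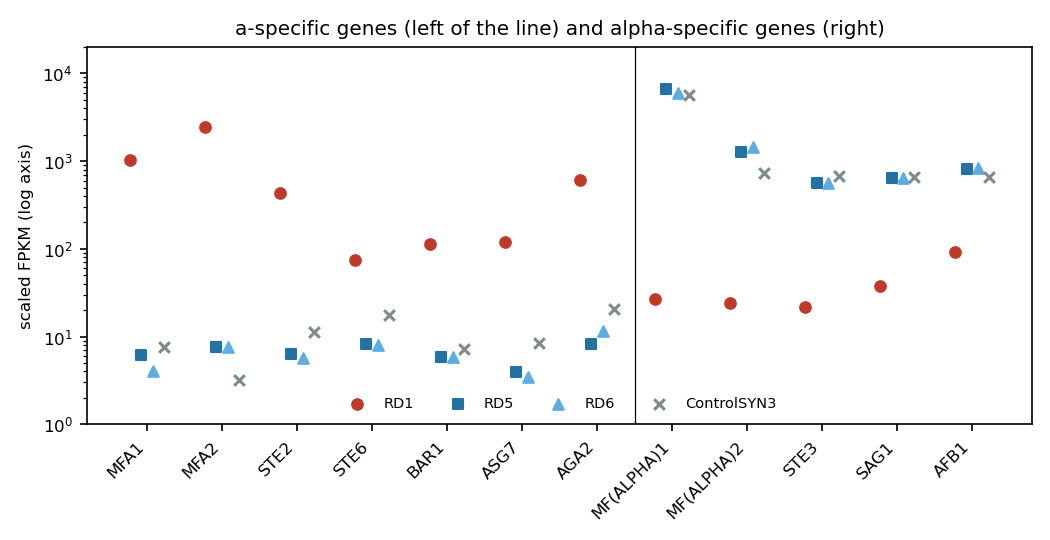
Scaled FPKM (log axis) of the 7 a-specific genes, left of the line, and the 5 alpha-specific genes, right of it, in RD1 (circles), RD5 (squares), RD6 (triangles) and ControlSYN3 (crosses). RD1 is above the other 3 libraries for every a-specific gene and below them for every alpha-specific gene.

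Among the a-specific genes, the a-factor precursor genes had the highest levels in RD1. MFA2 stood at 2469 scaled FPKM in RD1, 7.57 and 7.56 in RD5 and RD6, and 3.23 in ControlSYN3, and its log2 ratio was 8.17, the largest of any row with a reference match and a mean of at least 10 FPKM. MFA1, the other a-factor gene, stood at 1043 scaled FPKM in RD1, 6.14 and 4.09 in RD5 and RD6, and 7.67 in ControlSYN3 (log2 ratio 7.42). RD5, RD6 and ControlSYN3 therefore held both pheromone genes at a few FPKM. STE2, the receptor for alpha-factor, stood at 431 scaled FPKM in RD1, 6.26 and 5.72 in RD5 and RD6, and 11.2 in ControlSYN3 (log2 ratio 5.95). AGA2, the adhesion subunit of a-agglutinin, stood at 614 scaled FPKM in RD1, 8.27 and 11.6 in RD5 and RD6, and 20.5 in ControlSYN3 (log2 ratio 5.81). STE6, the transporter that exports a-factor, showed the smallest ratio of the list and stood at 73.9 scaled FPKM in RD1, 8.29 and 7.93 in RD5 and RD6, and 17.5 in ControlSYN3 (log2 ratio 3.04). The protease gene BAR1, whose product degrades alpha-factor, stood at 113 scaled FPKM in RD1, 5.82 and 5.84 in RD5 and RD6, and 7.24 in ControlSYN3 (log2 ratio 4.07). ASG7, whose product restrains pheromone signalling after mating, stood at 119.5 scaled FPKM in RD1, 3.94 and 3.42 in RD5 and RD6, and 8.41 in ControlSYN3 (log2 ratio 4.69). RD1 lay above RD5, RD6 and ControlSYN3 in all 7 genes, though the share of all rows with this order was not counted. Past 2-fold higher than RD5 and RD6 were all 7, against 6.71% of all rows.

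Of the alpha-specific genes, MF(ALPHA)1, the major alpha-factor gene, stood at 26.5 scaled FPKM in RD1, 6718 and 6021 in RD5 and RD6, and 5678 in ControlSYN3 (log2 ratio -7.86). It was the row with the strongest deficit in RD1. MF(ALPHA)2, the minor alpha-factor gene, stood at 23.9 scaled FPKM in RD1, 1258 and 1462 in RD5 and RD6, and 731 in ControlSYN3 (log2 ratio -5.77). STE3, the receptor for a-factor, stood at 21.6 scaled FPKM in RD1, 568 and 557 in RD5 and RD6, and 682 in ControlSYN3 (log2 ratio -4.64). SAG1, the alpha-agglutinin, stood at 37.9 scaled FPKM in RD1, 637 and 635 in RD5 and RD6, and 654 in ControlSYN3 (log2 ratio -4.03). AFB1, which encodes the a-factor barrier of alpha cells, stood at 93.1 scaled FPKM in RD1, 816 and 838 in RD5 and RD6, and 662 in ControlSYN3 (log2 ratio -3.14). RD1 thus held between 21.6 and 93.1 scaled FPKM of each alpha-specific gene. In bulk RNA, a few cells of the other type and a low level in every cell cannot be told apart. The genes of the mating-type locus itself were not analysed here, and only 15 matched rows of chromosome III were examined in all.

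The reference promoters of these genes are shown because all 7 a-specific members differed in the same direction. In R64, each holds in the 500 bases before the annotated gene start a match to a pattern of the alpha2 and Mcm1 operator, CATGT, 5 or 6 free bases, CC, 6 free bases and GG. The pattern was searched on both strands, separately for each of the spacings. The shorter spacing occurred in 5 of the 7 a-specific promoters and in 16 of 5770 promoters in all (0.277%), and the longer one in 4 of 7 and in 11 of 5770 (0.191%); 4 promoters hold both spacings at overlapping positions. Either spacing was found in 7 of 7 a-specific promoters, in 0 of 5 alpha-specific ones and in 23 of 5770 (0.399%). Capitals mark the fixed letters in the sequences that follow, each written 5′ to 3′ on the stated strand, with the distance of the site from the gene start.
MFA1, chrIV:1384937-1384980, minus strand, 224 bases upstream: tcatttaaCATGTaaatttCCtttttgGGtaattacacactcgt
MFA2, chrXIV:352155-352198, plus strand, 251 bases upstream: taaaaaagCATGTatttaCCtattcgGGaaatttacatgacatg
STE2, chrVI:82346-82389, minus strand, 218 bases upstream: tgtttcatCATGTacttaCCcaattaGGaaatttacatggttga
STE6, chrXI:46472-46515, minus strand, 212 bases upstream: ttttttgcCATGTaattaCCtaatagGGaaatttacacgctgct
BAR1, chrIX:322070-322113, plus strand, 264 bases upstream: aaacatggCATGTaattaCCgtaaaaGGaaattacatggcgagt
ASG7, chrX:101897-101940, plus strand, 146 bases upstream: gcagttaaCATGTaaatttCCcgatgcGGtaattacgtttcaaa
AGA2, chrVII:437096-437139, minus strand, 298 bases upstream: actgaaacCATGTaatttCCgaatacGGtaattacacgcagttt
These are reference letters, and the promoters of the RD strains themselves were not read.

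Among the alpha-specific promoters, the palindrome made of CCTAA and TTAGG, a strong Mcm1 site, occurred in 2 of 5 and in 5 of 5770 promoters (0.0867%). The matching promoters belong to the major alpha-factor gene and to alpha-agglutinin, both past 16-fold lower in RD1.
MF(ALPHA)1, chrXVI:193325-193368, plus strand, 309 bases upstream: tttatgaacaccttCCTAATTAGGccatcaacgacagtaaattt
SAG1, chrX:445178-445221, minus strand, 346 bases upstream: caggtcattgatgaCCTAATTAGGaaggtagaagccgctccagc
The pheromone response element TGAAACA, the site of Ste12, occurred in 7 of 7 a-specific, 2 of 5 alpha-specific and 681 of all 5770 promoters (11.8%), and in 2 promoters it overlapped the shorter spacing of the operator pattern. A match describes letters in the reference and not binding.

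Of 14 genes examined of the signalling chain that both mating types share, 0 were past 2-fold higher and 2 were lower in RD1, and the median log2 ratio was -0.65. Over all rows 6.71% were higher and 4.69% lower, so small counts in lists this short say little. FUS3, the mitogen-activated kinase of the pathway, stood at 54.4 scaled FPKM in RD1, 173 and 161 in RD5 and RD6, and 129 in ControlSYN3 (log2 ratio -1.60). STE12, its transcription factor, stood at 39.2 scaled FPKM in RD1, 89.8 and 90.8 in RD5 and RD6, and 80.1 in ControlSYN3 (log2 ratio -1.18). The G protein genes were within 2-fold: GPA1, the alpha subunit, stood at 86.9 scaled FPKM in RD1, 143 and 140.1 in RD5 and RD6, and 239.5 in ControlSYN3 (log2 ratio -0.70), and all 3 haploid subunit genes were expressed in every library. STE4, the beta subunit, stood at 51.8 scaled FPKM in RD1 and 79.2 and 91.0 in RD5 and RD6. STE18, the gamma subunit, stood at 61.5 scaled FPKM in RD1 and 88.1 and 92.7 in RD5 and RD6. Among 14 genes that pheromone induces or that serve cell fusion, 1 was higher and 3 were lower. AGA1, the anchor subunit of a-agglutinin that both mating types make, stood at 69.5 scaled FPKM in RD1, 280.1 and 273 in RD5 and RD6, and 434 in ControlSYN3 (log2 ratio -1.98). PRM6, a potassium transporter gene, stood at 1.89 scaled FPKM in RD1, 9.34 and 6.39 in RD5 and RD6, and 10.6 in ControlSYN3 (log2 ratio -1.62). FIG1, a membrane protein of mating, stood at 7.39 scaled FPKM in RD1, 21.4 and 17.3 in RD5 and RD6, and 17.4 in ControlSYN3 (log2 ratio -1.28). PRM5 was the higher member, at 144 scaled FPKM in RD1, 61.9 and 64.6 in RD5 and RD6, and 237 in ControlSYN3 (log2 ratio 1.17).

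Of 19 genes of meiosis and sporulation, 2 were higher and 0 lower in RD1. The shares of all rows were 6.71% higher and 4.69% lower, so this count says little about the list. SPS100, a spore wall gene, stood at 34.2 scaled FPKM in RD1, 14.7 and 10.4 in RD5 and RD6, and 20.1 in ControlSYN3 (log2 ratio 1.38), and an annotated noncoding gene lies on its opposite strand, with which its reads may mix. SPS4 stood at 15.4 scaled FPKM in RD1, 5.23 and 6.52 in RD5 and RD6, and 4.39 in ControlSYN3 (log2 ratio 1.25). RME1, the repressor of meiosis that haploid cells express, was within 2-fold at 173 scaled FPKM in RD1 and 161 and 149 in RD5 and RD6. It was among 17 genes of the list within 2-fold.

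Genes often used as auxotrophic markers also separated the libraries. LEU2, another such marker, was looked for and had no matched row. LYS2, the aminoadipate reductase of lysine synthesis at chrII:469748-473926, stood at 168 scaled FPKM in RD1, against 0.0202 in RD5, and is listed at 0 in RD6 and in ControlSYN3. No fold is given against such values. URA3, of uracil synthesis, stood at 2165 scaled FPKM in RD1, 544 and 557 in RD5 and RD6, and 351 in ControlSYN3 (log2 ratio 1.97). HIS3, of histidine synthesis, stood at 1557 scaled FPKM in RD1, 238 and 219.9 in RD5 and RD6, and 1039 in ControlSYN3 (log2 ratio 2.76). CAN1, the arginine permease gene, stood at 213 scaled FPKM in RD1, 102 and 91.9 in RD5 and RD6, and 230.0 in ControlSYN3 (log2 ratio 1.12). MET17, the homocysteine synthase gene, was the only marker past 2-fold lower in RD1, at 149 scaled FPKM in RD1, 490.4 and 442 in RD5 and RD6, and 722 in ControlSYN3 (log2 ratio -1.64). ADE2, of purine synthesis, stood at 184 scaled FPKM in RD1, 358 and 418 in RD5 and RD6, and 199.8 in ControlSYN3, past 2-fold lower against RD6 alone. TRP1, of tryptophan synthesis, did not differ past 2-fold at 72.7 scaled FPKM in RD1 and 73.1 and 69.8 in RD5 and RD6. LYP1, the lysine permease gene, was also within 2-fold at 180.0 scaled FPKM in RD1 and 142 and 127 in RD5 and RD6.

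LYS2 was among 11 rows with at least 10 scaled FPKM in RD1 and under 0.1 in both RD5 and RD6, and 0 rows showed the reverse. In ControlSYN3, 10 of the 11 were under 0.1 as well. They lie in few places. The asparaginase genes ASP3-1, ASP3-2, ASP3-3 and ASP3-4, at chrXII:469317-470405, chrXII:472969-474057, chrXII:482549-483637 and chrXII:486201-487289, code for the secreted enzyme that splits asparagine. Each is listed with 96.5 scaled FPKM in RD1, against 0.0101 in RD5 and 0 in RD6 and ControlSYN3. The values of the 4 copies are identical, so they are a shared value that the counting cannot split and not 4 observations. YLR156W, YLR159W and YLR161W lie between and next to these copies, and share the value 19.7 in RD1 and 0 in the other 3 libraries. A retrotransposon frame on chromosome IV, YDR210W-B, which overlaps another frame of the same element, stood at 11.7 in RD1, 0 in RD5 and RD6 and 0.307 in ControlSYN3.

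The left end of chromosome VI held the longest run of neighbouring measured genes past 2-fold in the same direction, with 6 members higher in RD1. YFL066C, a helicase-like frame of the repeated Y′ element at chrVI:1437-2615, stood at 52.0 scaled FPKM in RD1 and is listed at 0 in the other 3 libraries. YFL065C stood at 15.8 in RD1 and is also listed at 0 in the others. YFL067W, at chrVI:836-1363, stood at 155 scaled FPKM in RD1, 3.03 and 2.99 in RD5 and RD6, and 6.23 in ControlSYN3 (log2 ratio 5.28). YFL068W stood at 398 scaled FPKM in RD1, 171 and 156 in RD5 and RD6, and 144 in ControlSYN3 (log2 ratio 1.28). YFL064C stood at 6.45 scaled FPKM in RD1 and 0.506 in RD5, and is listed at 0 in RD6 and ControlSYN3. The sixth member, COS4, the only gene past 2-fold among 12 of the subtelomeric COS family, stood at 4.60 scaled FPKM in RD1, 1.33 and 1.46 in RD5 and RD6, and 2.83 in ControlSYN3 (log2 ratio 1.23). Such ends repeat across chromosomes, and the sources used here do not say how shared fragments were assigned.

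Lysine synthesis was higher in RD1 throughout. All 9 genes were past 2-fold higher, with a median log2 ratio of 1.89. LYS20, a homocitrate synthase gene that opens the pathway, stood at 1560.2 scaled FPKM in RD1, 89.8 and 67.7 in RD5 and RD6, and 929 in ControlSYN3 (log2 ratio 4.29). LYS9, of the penultimate step, stood at 809 scaled FPKM in RD1, 70.4 and 68.3 in RD5 and RD6, and 196 in ControlSYN3 (log2 ratio 3.53). LYS1, of the last step, stood at 979 scaled FPKM in RD1, 125 and 102 in RD5 and RD6, and 966 in ControlSYN3 (log2 ratio 3.10). LYS14, the transcription factor of the pathway, stood at 189 scaled FPKM in RD1, 55.0 and 46.2 in RD5 and RD6, and 144 in ControlSYN3 (log2 ratio 1.89). ControlSYN3 was above RD5 and RD6 in 8 of the 9 genes, the exception being LYS2, and within 2-fold of RD1 in 7.

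Of 13 arginine genes 10 were past 2-fold higher and 0 lower, with a median log2 ratio of 1.98. ARG3, the ornithine carbamoyltransferase, stood at 723 scaled FPKM in RD1, 46.8 and 34.0 in RD5 and RD6, and 741 in ControlSYN3 (log2 ratio 4.13). ARG1, the argininosuccinate synthase, stood at 3353 scaled FPKM in RD1, 289 and 199 in RD5 and RD6, and 4575 in ControlSYN3 (log2 ratio 3.78). ARG56, also written ARG5,6, which yields enzymes of ornithine synthesis, stood at 539.8 scaled FPKM in RD1, 68.1 and 53.0 in RD5 and RD6, and 692 in ControlSYN3 (log2 ratio 3.14). ARG8, of the same branch, stood at 228 scaled FPKM in RD1, 40.3 and 34.3 in RD5 and RD6, and 273 in ControlSYN3 (log2 ratio 2.58). The breakdown genes were not past 2-fold: CAR1, arginase, stood at 60.8 scaled FPKM in RD1 and 42.6 and 47.6 in RD5 and RD6. CAR2, ornithine aminotransferase, stood at 62.1 scaled FPKM in RD1 and 62.8 and 72.6 in RD5 and RD6. ControlSYN3 was within 2-fold of RD1 in 13 of 13 genes, and RD1 exceeded it in 1.

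Aromatic and histidine genes were higher in part. Of 15 aromatic genes, 6 were higher and 0 lower (median log2 ratio 0.80). ARO10, a phenylpyruvate decarboxylase of aromatic amino acid breakdown, stood at 429 scaled FPKM in RD1, 27.7 and 27.8 in RD5 and RD6, and 612 in ControlSYN3 (log2 ratio 3.90). ARO9, the aminotransferase before it, stood at 565 scaled FPKM in RD1, 41.0 and 44.3 in RD5 and RD6, and 943 in ControlSYN3 (log2 ratio 3.70). TRP3, of tryptophan synthesis, stood at 322 scaled FPKM in RD1, 114 and 98.0 in RD5 and RD6, and 475 in ControlSYN3 (log2 ratio 1.60). ARO4, an entry enzyme of the pathway, was within 2-fold at 436 scaled FPKM in RD1 and 365 and 301 in RD5 and RD6 (log2 ratio 0.39). ARO3, which catalyses the same entry step, was also within 2-fold at 641 scaled FPKM in RD1 and 438 and 303 in RD5 and RD6 (log2 ratio 0.79). Of 6 histidine genes, 3 were higher and 0 lower. HIS5, the aminotransferase, stood at 1005 scaled FPKM in RD1, 348 and 257 in RD5 and RD6, and 1588 in ControlSYN3 (log2 ratio 1.73). HIS7, of the imidazole step, stood at 244 scaled FPKM in RD1, 118 and 113 in RD5 and RD6, and 348 in ControlSYN3 (log2 ratio 1.08).

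Methionine and sulfate genes went in both directions, with 9 of 24 higher and 2 lower, or 4 lower without RD5. STR3, a cystathionine lyase gene, stood at 182 scaled FPKM in RD1, 25.3 and 18.8 in RD5 and RD6, and 316 in ControlSYN3 (log2 ratio 2.99). MET16, a reductase of sulfate assimilation, stood at 299 scaled FPKM in RD1, 59.5 and 55.1 in RD5 and RD6, and 238 in ControlSYN3 (log2 ratio 2.36). MET28, a regulator of the pathway, stood at 170.3 scaled FPKM in RD1, 30.6 and 34.1 in RD5 and RD6, and 197 in ControlSYN3 (log2 ratio 2.36). SAM1, an S-adenosylmethionine synthetase gene, was lower in RD1 at 162 scaled FPKM in RD1, 487 and 584 in RD5 and RD6, and 91.1 in ControlSYN3 (log2 ratio -1.72). MET10, a subunit of sulfite reductase, was among the further higher members at 144 scaled FPKM in RD1, 43.9 and 38.7 in RD5 and RD6, and 139 in ControlSYN3 (log2 ratio 1.78). Of 10 branched-chain genes, 2 were higher and 1 lower, against 6.71% and 4.69% of all rows, and counts in so short a list say little. BAT2, the cytosolic branched-chain aminotransferase, stood at 502 scaled FPKM in RD1, 92.4 and 102 in RD5 and RD6, and 150.1 in ControlSYN3 (log2 ratio 2.35). LEU4, which opens leucine synthesis, stood at 887 scaled FPKM in RD1, 391 and 342 in RD5 and RD6, and 1279 in ControlSYN3 (log2 ratio 1.27). LEU1, the next enzyme, was lower at 175 scaled FPKM in RD1, 377 and 378 in RD5 and RD6, and 1074 in ControlSYN3 (log2 ratio -1.10).

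Reference promoter sites are shown for some members of the lysine, arginine and iron lists with high ratios. A window was printed only where the promoter holds the site of a known regulator. The windows were thus chosen in part for the site, and LYS2 and LYS20, with the largest ratios of the lysine list, are not shown. TGACTC, the core of the Gcn4 site, was found in 13 of 13 arginine, 5 of 6 histidine, 4 of 9 lysine and 12 of 16 purine promoters, against 747 of 5770 in all (12.9%). The purine list was lower in RD1, so the same letters stand before genes that differed in opposite directions. Among rows past 2-fold with a promoter, 94 of 386 higher (24.4%) and 27 of 260 lower ones (10.4%) held it. TCCNNNGGA, a pattern of the Lys14 site, was found in 5 of 9 lysine promoters and 337 of 5770 (5.84%). TGCACCC, the core of the Aft1 site, was found in 22 of 27 iron promoters and 134 of 5770 (2.32%). CACGTG, the site of Cbf1, was found in 18 of 24 methionine and sulfate promoters and 357 of 5770 (6.19%). All were searched on both strands in the 500 bases before the R64 gene start, and TGACTC overlapped TCCNNNGGA in 5 promoters and CACGTG in 5. Capitals mark the motif.
LYS1, chrIX:420912-420944, minus strand: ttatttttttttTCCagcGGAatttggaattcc
LYS9, chrXIV:715593-715625, minus strand: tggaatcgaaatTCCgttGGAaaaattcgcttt
ARG1, chrXV:218854-218883, plus strand: gtgattttttagTGACTCatgtcgcatttg
ARG3, chrX:268349-268378, plus strand: cgttagcaaccaTGACTCcagtaaacaaaa
FIT2, chrXV:1059253-1059283, plus strand: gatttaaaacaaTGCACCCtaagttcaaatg
FIT3, chrXV:1061322-1061352, minus strand: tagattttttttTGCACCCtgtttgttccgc
SIT1, chrV:27457-27487, minus strand: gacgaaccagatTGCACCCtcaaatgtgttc
The window before LYS20 holds no TCCNNNGGA, although LYS20 had the largest ratio among the members above 0 in all 4 libraries.

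Iron uptake genes were higher in RD1, with 12 of 27 past 2-fold, 0 lower and a median log2 ratio of 0.94. FIT2, a cell wall mannoprotein that retains iron siderophores, stood at 1949 scaled FPKM in RD1, 45.1 and 41.8 in RD5 and RD6, and 174 in ControlSYN3 (log2 ratio 5.45). FIT3, of the same family, stood at 1431 scaled FPKM in RD1, 81.0 and 76.9 in RD5 and RD6, and 153 in ControlSYN3 (log2 ratio 4.16). SIT1, a siderophore transporter, stood at 122 scaled FPKM in RD1, 9.94 and 7.73 in RD5 and RD6, and 21.4 in ControlSYN3 (log2 ratio 3.65). Siderophore genes varied among themselves, and FIT1, of the same family as FIT2, was within 2-fold at 13.2 scaled FPKM in RD1 and 10.1 and 8.57 in RD5 and RD6 (log2 ratio 0.46). TIS11, an RNA-binding protein that degrades transcripts of iron-using proteins, stood at 159 scaled FPKM in RD1, 23.5 and 16.5 in RD5 and RD6, and 16.6 in ControlSYN3 (log2 ratio 2.93). These members were also well above ControlSYN3 in RD1, and RD1 exceeded ControlSYN3 in 22 of the 27 genes. In reductive uptake, FET3, the multicopper oxidase, stood at 540.3 scaled FPKM in RD1, 147 and 95.4 in RD5 and RD6, and 129 in ControlSYN3 (log2 ratio 2.15). FTR1, its permease partner, was past 2-fold against RD6 alone at 290.0 scaled FPKM in RD1, 155 and 112 in RD5 and RD6, and 60.2 in ControlSYN3.

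Zinc, phosphate and copper genes were examined beside the iron genes, against 6.71% of all rows higher in RD1. Of 9 zinc genes 1 was higher, with 7 of 9 ratios above 0, and this was ZPS1, a cell wall protein gene, at 782 scaled FPKM in RD1, 177 and 185 in RD5 and RD6, and 20.9 in ControlSYN3 (log2 ratio 2.10). ZRT1, the high-affinity zinc transporter, stood at 2119.8 scaled FPKM in RD1, 1714 and 1529.9 in RD5 and RD6, and 48.9 in ControlSYN3, so it was high in all RD libraries and low in ControlSYN3. Of 16 phosphate genes 3 were higher, with 12 of 16 ratios above 0, among them PHO89, a sodium-phosphate cotransporter, at 11.4 scaled FPKM in RD1, 3.70 and 3.39 in RD5 and RD6, and 4.64 in ControlSYN3 (log2 ratio 1.44). SPL2, an inhibitor of low-affinity phosphate uptake, stood at 30.4 scaled FPKM in RD1, 12.8 and 9.51 in RD5 and RD6, and 10.4 in ControlSYN3 (log2 ratio 1.37). PHO8, the vacuolar alkaline phosphatase, stood at 218 scaled FPKM in RD1, 107 and 91.2 in RD5 and RD6, and 242 in ControlSYN3 (log2 ratio 1.13). Of 7 copper genes 0 were past 2-fold in either direction. The metallothionein genes CUP1-1 and CUP1-2 share 1 value, 3208 scaled FPKM in RD1, 1620.0 and 1387 in RD5 and RD6, and 3553 in ControlSYN3, and were past 2-fold higher without RD5.

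Thiamine and vitamin B6 genes included some of the largest ratios outside mating. Of 20 genes, 9 were higher and 0 lower, and the median log2 ratio was 0.84. THI5, of thiamine pyrimidine synthesis, stood at 254 scaled FPKM in RD1, 6.17 and 4.70 in RD5 and RD6, and 6.93 in ControlSYN3 (log2 ratio 5.31). THI12, a near-identical copy, stood at 348 scaled FPKM in RD1, 8.86 and 10.5 in RD5 and RD6, and 10.1 in ControlSYN3 (log2 ratio 5.03). The values of THI5, THI11, THI12 and THI13 are uncertain individually, since reads of such copies can be split among them, and all 4 were higher. THI4, which makes the thiazole part of thiamine and has no such copy, stood at 2118 scaled FPKM in RD1, 376 and 218 in RD5 and RD6, and 79.4 in ControlSYN3 (log2 ratio 2.83). SNZ1, of vitamin B6 synthesis, stood at 2310.3 scaled FPKM in RD1, 187 and 114 in RD5 and RD6, and 1783 in ControlSYN3 (log2 ratio 3.93). SNO1, its divergently transcribed neighbour and partner enzyme, stood at 302 scaled FPKM in RD1, 46.3 and 32.0 in RD5 and RD6, and 285 in ControlSYN3 (log2 ratio 2.92). ControlSYN3 was near RD5 and RD6 for THI5 and THI12 but near RD1 for SNZ1 and SNO1. THI7, the thiamine transporter, was within 2-fold at 401 scaled FPKM in RD1 and 445 and 373 in RD5 and RD6.

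Of 20 genes under nitrogen catabolite repression, which limits use of poor nitrogen sources, 7 were higher and 0 lower (median log2 ratio 0.80). MEP2, an ammonium permease, stood at 176 scaled FPKM in RD1, 22.2 and 20.2 in RD5 and RD6, and 71.2 in ControlSYN3, the highest ratio of the list. DUR3, a urea transporter, stood at 73.0 scaled FPKM in RD1, 12.1 and 8.35 in RD5 and RD6, and 59.2 in ControlSYN3 (log2 ratio 2.72). GAP1, the general amino acid permease, stood at 199.5 scaled FPKM in RD1, 34.8 and 31.3 in RD5 and RD6, and 80.5 in ControlSYN3 (log2 ratio 2.56). DAL3, of allantoin breakdown, stood at 42.2 scaled FPKM in RD1, 7.83 and 8.18 in RD5 and RD6, and 30.3 in ControlSYN3 (log2 ratio 2.26). GLN1, glutamine synthetase, was within 2-fold at 1606 scaled FPKM in RD1 and 1763 and 1870.5 in RD5 and RD6. Of 13 amino acid permease genes 3 were higher, against 6.71% of all rows. DIP5, which carries acidic amino acids, stood at 230.0 scaled FPKM in RD1, 71.2 and 55.8 in RD5 and RD6, and 107 in ControlSYN3 (log2 ratio 1.84).

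Cytosolic ribosomal protein genes were lower in RD1 almost as a body. Of 81 genes of the large subunit 75 were past 2-fold lower and 0 higher, and of 55 of the small subunit 52 were lower and 0 higher, with a median log2 ratio of -1.81 for each list. The ratio was below 0 in all 81 and in all 55 genes. The summed level of the large subunit was 31569 scaled FPKM in RD1, 96304 in RD5, 120230 in RD6 and 17424 in ControlSYN3. RPL9A stood at 138 scaled FPKM in RD1, 843 and 1154 in RD5 and RD6, and 69.2 in ControlSYN3 (log2 ratio -2.85), the largest deficit of the list, whereas its paralogue RPL9B stood at 182 scaled FPKM in RD1, 367 and 349 in RD5 and RD6, and 81.1 in ControlSYN3 (log2 ratio -0.97). RPL15B was the member closest to equality at 93.8 scaled FPKM in RD1 and 122 and 106 in RD5 and RD6 (log2 ratio -0.28). In the small subunit, RPS22A stood at 424 scaled FPKM in RD1, 1892 and 2166 in RD5 and RD6, and 217 in ControlSYN3 (log2 ratio -2.26). RPS26B stood at 397 scaled FPKM in RD1, 1714 and 2052 in RD5 and RD6, and 179.5 in ControlSYN3 (log2 ratio -2.24). RPS31, a ubiquitin fusion gene, stood at 1093 scaled FPKM in RD1, 4193 and 4931 in RD5 and RD6, and 474 in ControlSYN3 (log2 ratio -2.06). Most ribosomal proteins come from near-identical pairs, so the split between paralogues is uncertain. RD6 was above RD5 in these lists by a median of 0.30 (large) and 0.28 (small) on the log2 scale, a smaller step than that to RD1. RD1 stood above ControlSYN3 in 80 of 81 and 55 of 55 genes, so RD1 lay between ControlSYN3 and the other RD libraries.

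Genes that build ribosomes differed in the same direction by less. Of 58 ribosome biogenesis genes 19 were lower and 0 higher, the ratio was below 0 in all 58, and its median was -0.93. Without RD6, 29 were past 2-fold lower. NSR1, a nucleolar protein of pre-ribosomal RNA processing, stood at 76.6 scaled FPKM in RD1, 341 and 266 in RD5 and RD6, and 54.1 in ControlSYN3 (log2 ratio -1.97). NOP58, of the small nucleolar ribonucleoprotein core, stood at 73.6 scaled FPKM in RD1, 225 and 216 in RD5 and RD6, and 62.4 in ControlSYN3 (log2 ratio -1.57). NOP56, its partner, stood at 93.6 scaled FPKM in RD1, 263 and 280.2 in RD5 and RD6, and 117 in ControlSYN3 (log2 ratio -1.53). ControlSYN3 was within 2-fold of RD1 in 58 of 58 genes. Translation factors, a list chosen after their values were seen, had 7 of 29 lower and 0 higher (median log2 ratio -0.79). YEF3, the fungal elongation factor, stood at 270.3 scaled FPKM in RD1, 726 and 756 in RD5 and RD6, and 201 in ControlSYN3 (log2 ratio -1.45). TEF4, an elongation factor subunit, stood at 337 scaled FPKM in RD1, 766 and 956 in RD5 and RD6, and 215 in ControlSYN3 (log2 ratio -1.35). TEF2, which encodes the main elongation factor together with TEF1, was within 2-fold at 3276 scaled FPKM in RD1 and 4639.9 and 5074 in RD5 and RD6. Of 55 mitochondrial ribosomal protein genes 0 were past 2-fold, although 53 had a ratio below 0 and the median was -0.51. SSB1 and SSB2, chaperones bound to ribosomes, stood lower as well, SSB1 at 296 scaled FPKM in RD1, 879 and 1007 in RD5 and RD6, and 215 in ControlSYN3 (log2 ratio -1.67).

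Purine synthesis was lower in RD1, with 9 of 16 genes past 2-fold lower, 0 higher and a median log2 ratio of -1.43. ADE17, of the last steps to inosine monophosphate, stood at 394 scaled FPKM in RD1, 1401 and 1573 in RD5 and RD6, and 333 in ControlSYN3 (log2 ratio -1.91). IMD3, which commits inosine monophosphate to guanine nucleotides, stood at 71.9 scaled FPKM in RD1, 259 and 233 in RD5 and RD6, and 30.4 in ControlSYN3 (log2 ratio -1.76). SHM2, a serine hydroxymethyltransferase that feeds folate carbon into purines, stood at 699 scaled FPKM in RD1, 2340.4 and 2313 in RD5 and RD6, and 835 in ControlSYN3 (log2 ratio -1.73). ADE13, adenylosuccinate lyase, stood at 225 scaled FPKM in RD1, 754 and 714 in RD5 and RD6, and 264 in ControlSYN3 (log2 ratio -1.70). ADE3, which acts in folate interconversion, was within 2-fold at 513 scaled FPKM in RD1 and 433 and 438 in RD5 and RD6. ControlSYN3 was within 2-fold of RD1 in 14 of the 16. Of 11 pyrimidine genes 2 were higher and 2 lower, against 6.71% and 4.69% of all rows. Besides URA3, URA10, a minor orotate phosphoribosyltransferase, was higher at 285 scaled FPKM in RD1, 60.7 and 37.8 in RD5 and RD6, and 341 in ControlSYN3 (log2 ratio 2.51). FUR1, of uracil salvage, stood at 48.2 scaled FPKM in RD1, 158 and 160.5 in RD5 and RD6, and 63.5 in ControlSYN3 (log2 ratio -1.70). URA7, a cytidine triphosphate synthase, stood at 26.3 scaled FPKM in RD1, 85.6 and 67.0 in RD5 and RD6, and 15.4 in ControlSYN3 (log2 ratio -1.50).

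Genes of sugar metabolism differed in both directions. Of 20 genes of glycolysis and fermentation 6 were lower, 2 higher and 12 within 2-fold (median log2 ratio -0.67). ADH1, the alcohol dehydrogenase of fermentation, stood at 1113 scaled FPKM in RD1, 3685 and 3470.2 in RD5 and RD6, and 2603 in ControlSYN3 (log2 ratio -1.68). TDH2, a glyceraldehyde phosphate dehydrogenase gene with a close copy in TDH3, stood at 1022 scaled FPKM in RD1, 4042 and 3537 in RD5 and RD6, and 1057 in ControlSYN3 (log2 ratio -1.89). PDC5, a minor pyruvate decarboxylase gene, was higher at 299 scaled FPKM in RD1, 51.9 and 52.1 in RD5 and RD6, and 24.5 in ControlSYN3 (log2 ratio 2.50). PDC6, another minor copy, was the other higher gene, at 23.0 scaled FPKM in RD1, 7.95 and 7.45 in RD5 and RD6, and 8.84 in ControlSYN3 (log2 ratio 1.46). PDC1, the main pyruvate decarboxylase gene, was within 2-fold at 5428 scaled FPKM in RD1 and 7534 and 8741 in RD5 and RD6. TDH3, the main gene of the TDH family, was within 2-fold at 14832 scaled FPKM in RD1 and 17778 and 18241 in RD5 and RD6. Of 18 hexose transporter genes 4 were higher and 2 lower, against 6.71% and 4.69% of all rows. HXT1, a low-affinity carrier made in rich glucose, stood at 26.9 scaled FPKM in RD1, 77.8 and 81.5 in RD5 and RD6, and 78.5 in ControlSYN3 (log2 ratio -1.53). HXT3, another low-affinity carrier, stood at 499 scaled FPKM in RD1, 1319.9 and 1158 in RD5 and RD6, and 1206 in ControlSYN3 (log2 ratio -1.31). HXT6, a high-affinity carrier with a close copy in HXT7, was higher at 623 scaled FPKM in RD1, 288 and 104 in RD5 and RD6, and 394 in ControlSYN3 (log2 ratio 1.67), and RD5 and RD6 themselves were 1.47 apart (log2) in this gene.

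Of 27 genes of the tricarboxylic acid and glyoxylate cycles 6 were higher and 0 lower (median log2 ratio 0.56). MLS1, malate synthase, stood at 61.1 scaled FPKM in RD1, 6.99 and 5.82 in RD5 and RD6, and 24.6 in ControlSYN3 (log2 ratio 3.07). ICL1, isocitrate lyase, the other enzyme special to the glyoxylate cycle, stood at 108 scaled FPKM in RD1, 32.3 and 30.3 in RD5 and RD6, and 89.7 in ControlSYN3 (log2 ratio 1.75). IDP1, mitochondrial isocitrate dehydrogenase, stood at 654 scaled FPKM in RD1, 178 and 179.6 in RD5 and RD6, and 498 in ControlSYN3 (log2 ratio 1.87). The 4 genes of the carnitine shuttle, which carries acetyl units between compartments, were all higher, and this list too was chosen after its values were seen. YAT2, a carnitine acetyltransferase, stood at 184 scaled FPKM in RD1, 20.4 and 15.9 in RD5 and RD6, and 237 in ControlSYN3 (log2 ratio 3.27). CRC1, the mitochondrial carrier of acetylcarnitine, stood at 49.1 scaled FPKM in RD1, 6.28 and 5.04 in RD5 and RD6, and 37.2 in ControlSYN3 (log2 ratio 2.91). CAT2, the acetyltransferase of peroxisomes and mitochondria, stood at 101 scaled FPKM in RD1, 19.4 and 17.6 in RD5 and RD6, and 84.9 in ControlSYN3 (log2 ratio 2.38). Of 13 genes of the peroxisome and fatty acid oxidation 3 were higher and 0 lower, against 6.71% and 4.69% of all rows. Transcripts of the respiratory chain and ATP synthase differed by little. Of 35 genes 1 was past 2-fold higher, although 32 had a ratio above 0 and the median was 0.29. The higher gene was NDE2, an external NADH dehydrogenase, at 150.1 scaled FPKM in RD1, 18.4 and 16.3 in RD5 and RD6, and 45.4 in ControlSYN3 (log2 ratio 3.04). ATP2, of the ATP synthase, was within 2-fold at 1414 scaled FPKM in RD1 and 1197 and 1281 in RD5 and RD6.

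Stress genes were partly higher. Of 41 stress-induced genes 9 were higher and 0 lower, with a median log2 ratio of 0.56. Over all rows 6.71% were higher and 4.69% lower. The shorter lists of this paragraph are to be read beside the same shares, and a count of 2 or 3 there says little. Without RD5, 14 were higher. SPG4, a gene of stationary phase, stood at 244 scaled FPKM in RD1, 31.8 and 14.97 in RD5 and RD6, and 127 in ControlSYN3 (log2 ratio 3.33). HSP26, a small heat shock protein, stood at 5062 scaled FPKM in RD1, 2122 and 1256 in RD5 and RD6, and 2019.5 in ControlSYN3 (log2 ratio 1.58). HSP12, an abundant membrane-protecting stress protein, was within 2-fold at 5039 scaled FPKM in RD1 and 5678 and 4059 in RD5 and RD6. RD5 and RD6 differed by up to 1.47 (log2) within this list, and their median log2 ratio, RD5 over RD6, was 0.15. Of 20 oxidative stress genes 3 were higher, among them TSA2, a peroxiredoxin, at 495 scaled FPKM in RD1, 148 and 106 in RD5 and RD6, and 955 in ControlSYN3 (log2 ratio 1.95). SRX1, sulfiredoxin, stood at 98.1 scaled FPKM in RD1, 25.0 and 26.3 in RD5 and RD6, and 100.3 in ControlSYN3 (log2 ratio 1.90). Of 20 cytosolic chaperone genes 4 were higher and 2 lower, the lower ones being SSB1 and SSB2. SSA3, a stress-induced chaperone of the same family, stood at 96.6 scaled FPKM in RD1, 27.1 and 28.1 in RD5 and RD6, and 63.5 in ControlSYN3 (log2 ratio 1.77). Of 18 trehalose and glycogen genes 2 were higher and 0 lower, and 5 were higher without RD5. GLG2, a glycogenin, stood at 65.3 scaled FPKM in RD1, 23.1 and 30.4 in RD5 and RD6, and 47.6 in ControlSYN3 (log2 ratio 1.25).

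Several lists held no gene past 2-fold in either direction: 33 proteasome genes, 18 genes of the DNA damage response, 21 of G1 and S phase, 16 of mitosis, 11 of cell separation, 10 histone genes, 24 of ergosterol synthesis, 12 of folding in the endoplasmic reticulum, 10 of silencing, 7 of galactose use and 6 of biotin synthesis and uptake. Over all rows the share was 11.4%, so a 0 in the shorter of these lists says little. Leaving out RD5 or RD6 brought 1 gene past 2-fold in the lists of DNA damage, cell separation and folding in the endoplasmic reticulum. The median log2 ratio was -0.11 for the proteasome, -0.16 for G1 and S phase and 0.40 for mitosis. SIC1, an inhibitor of the S-phase kinase, stood at 190.0 scaled FPKM in RD1 and 216 and 184 in RD5 and RD6. CLB1, a mitotic cyclin gene, stood at 123 scaled FPKM in RD1 and 123 and 136 in RD5 and RD6. HHT2, a histone H3 gene, stood at 2459 scaled FPKM in RD1 and 2102 and 2495 in RD5 and RD6. BIO2, biotin synthase, stood at 388 scaled FPKM in RD1, 615 and 635 in RD5 and RD6, and 33.5 in ControlSYN3, so ControlSYN3 was far below all 3 RD libraries. Among 36 cell wall genes 2 were higher and 2 lower, near the shares of all rows, 6.71% and 4.69%, so the list as a whole did not stand out. UTR2, a glucan and chitin crosslinker, stood at 41.8 scaled FPKM in RD1, 159 and 218 in RD5 and RD6, and 54.6 in ControlSYN3 (log2 ratio -2.15). CWP1, a mannoprotein, stood at 115 scaled FPKM in RD1, 302 and 553 in RD5 and RD6, and 110.0 in ControlSYN3 (log2 ratio -1.88). PIR3, another wall protein, was higher at 705 scaled FPKM in RD1, 239 and 199 in RD5 and RD6, and 531 in ControlSYN3 (log2 ratio 1.68). CCW12, an abundant wall mannoprotein, was within 2-fold at 21594 scaled FPKM in RD1 and 23516 and 24936 in RD5 and RD6. TIR2, a mannoprotein that is also counted among 15 hypoxic genes, was higher at 57.7 scaled FPKM in RD1, 23.5 and 21.3 in RD5 and RD6, and 82.7 in ControlSYN3 (log2 ratio 1.33). ANB1, the hypoxic form of a translation factor, was lower at 5.96 scaled FPKM in RD1, 17.1 and 15.5 in RD5 and RD6, and 5.70 in ControlSYN3 (log2 ratio -1.31). With 1 higher and 1 lower of 15, the hypoxic list was also near the shares of all rows. Of 13 inositol and phospholipid genes URA7 alone was past 2-fold lower, and 3 were without RD5. Of 19 genes of the PAU family of wall mannoproteins that were examined, from 23 with a row, 5 were higher and 2 lower. PAU2 stood at 44.9 scaled FPKM in RD1, 17.2 and 12.5 in RD5 and RD6, and 40.6 in ControlSYN3 (log2 ratio 1.53). PAU6 and PAU18 share 1 value, 9.19 scaled FPKM in RD1, 22.4 and 23.0 in RD5 and RD6, and 9.15 in ControlSYN3 (log2 ratio -1.22), so they are not separate observations.

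**Figure D3:**
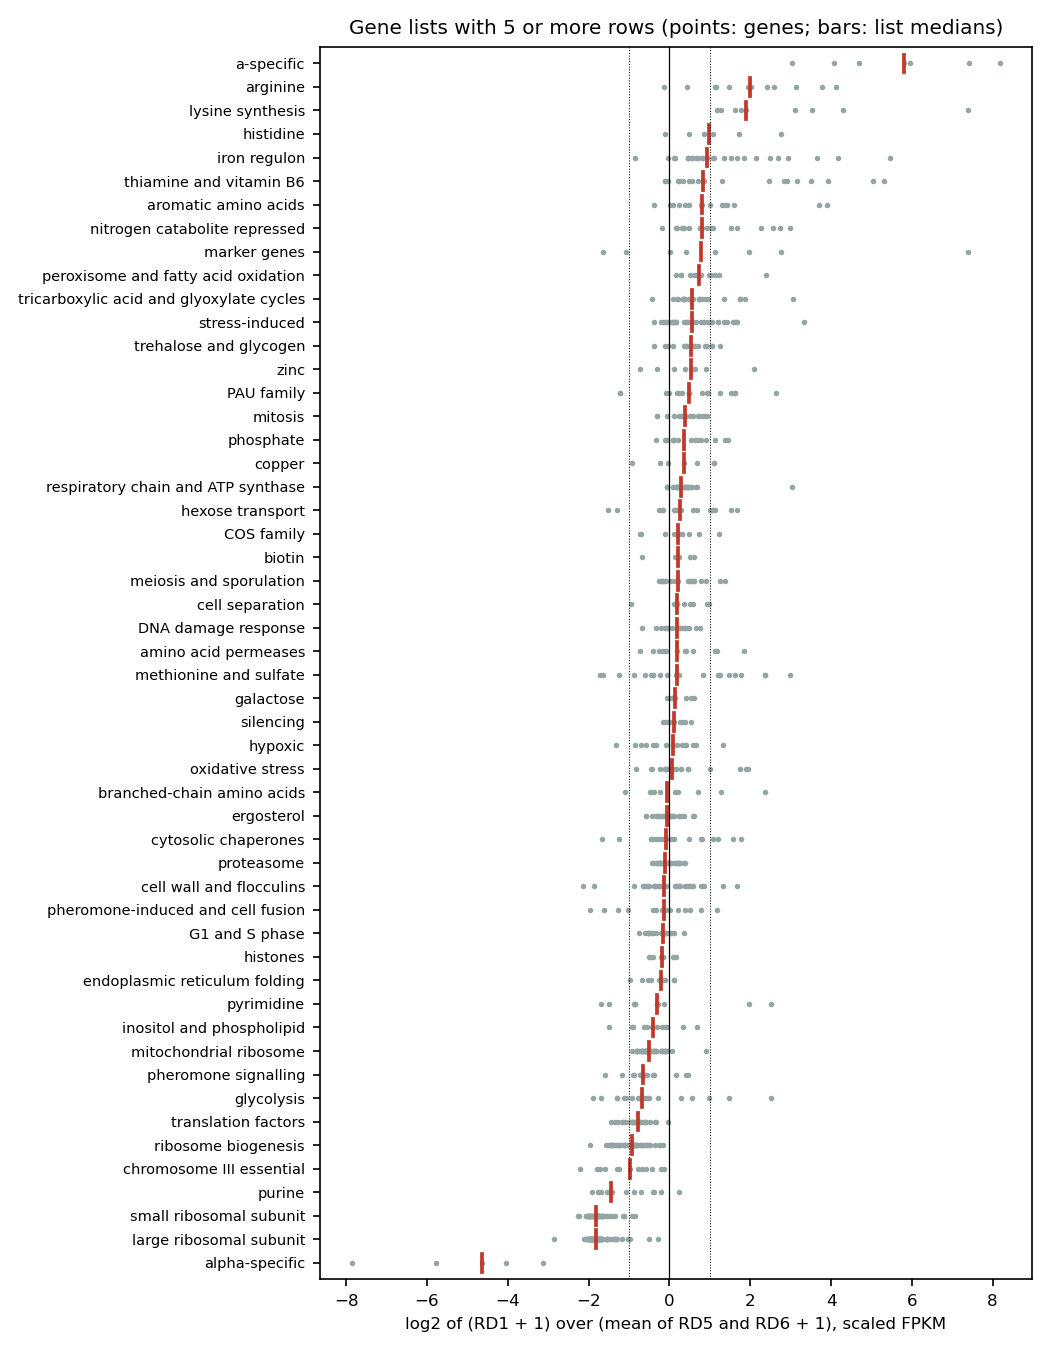
Log2 ratio of RD1 over the mean of RD5 and RD6 (scaled FPKM plus 1) for the genes (points) of each list with 5 or more rows, with list medians as bars and dotted lines at 2-fold. The a-specific list (median 5.81) and the alpha-specific list (median -4.64) lie at the ends, the arginine and lysine lists next on the high side and both ribosomal subunits (median -1.81 each) next on the low side.

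Many rows past 2-fold belonged to no list, 258 of the higher and 63 of the lower ones. Of the 15 matched rows with the strongest deficits in RD1 at a mean of at least 10 FPKM, 4 were of this kind. FMP48, which encodes a mitochondrial protein, stood at 34.2 scaled FPKM in RD1, 217 and 198 in RD5 and RD6, and 23.0 in ControlSYN3 (log2 ratio -2.57). MGA1, whose product resembles heat shock transcription factors, stood at 25.5 scaled FPKM in RD1, 143 and 118 in RD5 and RD6, and 14.9 in ControlSYN3 (log2 ratio -2.31). YBR238C stood at 6.03 scaled FPKM in RD1, 32.2 and 39.3 in RD5 and RD6, and 10.5 in ControlSYN3 (log2 ratio -2.39). INA1, a putative membrane protein gene, stood at 12.7 scaled FPKM in RD1, 57.3 and 59.6 in RD5 and RD6, and 20.9 in ControlSYN3 (log2 ratio -2.12). All 4 were lower in ControlSYN3 than in RD5 and RD6. Of 158 rows without a reference match, 9 were higher and 16 lower in RD1, and these are not named.

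The essential genes of chromosome III, the subject of the series, were lower in RD1 than in RD5 and RD6. Of 13 such genes 6 were past 2-fold lower and 0 higher, all 13 ratios were below 0, and the median was -0.97. Of these 6, KRR1, SPB1, RRP7, PWP2 and RSA4 act in ribosome assembly and PGK1 in glycolysis. The ribosome biogenesis list had a like median of -0.93, with all 58 ratios below 0. Whether the shift of the chromosome III genes goes with their function or their position was not tested. RRP7, of small-subunit assembly, stood at 84.9 scaled FPKM in RD1, 386 and 403 in RD5 and RD6, and 43.9 in ControlSYN3 (log2 ratio -2.20). RSA4, of large-subunit assembly, stood at 19.0 scaled FPKM in RD1, 66.1 and 69.8 in RD5 and RD6, and 4.96 in ControlSYN3 (log2 ratio -1.79). PWP2, a component of the small-subunit processome, stood at 26.1 scaled FPKM in RD1, 87.4 and 89.9 in RD5 and RD6, and 4.17 in ControlSYN3 (log2 ratio -1.73). PGK1, the glycolytic phosphoglycerate kinase, stood at 3557 scaled FPKM in RD1, 8785 and 8626 in RD5 and RD6, and 1283 in ControlSYN3 (log2 ratio -1.29). NFS1, which frees sulfur from cysteine for iron-sulfur clusters, was closest to equality at 126 scaled FPKM in RD1, 139 and 136 in RD5 and RD6, and 38.8 in ControlSYN3 (log2 ratio -0.13). RD1 nevertheless stood above ControlSYN3 in all 13, and RRP43, of the exosome, was listed at 0 in ControlSYN3, against 74.2 scaled FPKM in RD1 and 130.3 and 126 in RD5 and RD6. The sources used here do not say how fragments of recoded and wild-type copies were assigned in ControlSYN3.

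ControlSYN3 took a different side for different genes. Of the 395 rows higher in RD1, ControlSYN3 lay within 2-fold of RD1 alone in 241, within 2-fold of the mean of RD5 and RD6 alone in 80, within 2-fold of both in 48 and of neither in 26. Of the 276 lower rows these numbers were 173, 28, 12 and 63, and in 61 of the 63 ControlSYN3 lay beyond RD1, that is, lower still. Across rows, which are not independent, the Spearman correlation of RD1 was 0.904 with RD5, 0.894 with RD6 and 0.938 with ControlSYN3, whereas RD5 and RD6 correlated at 0.993. The list medians show the 2 patterns. Those of the a-specific genes were 431 scaled FPKM in RD1, 6.26 in RD5, 5.84 in RD6 and 8.41 in ControlSYN3. Those of the arginine genes were 434 in RD1, 68.1 in RD5, 72.6 in RD6 and 692 in ControlSYN3. Iron genes had a median of 93.1 in RD1, 32.7 in RD5, 34.8 in RD6 and 45.1 in ControlSYN3. ControlSYN3 was within 2-fold of the mean of RD5 and RD6 in 22 of 27 iron genes and within 2-fold of RD1 in 16. For the large ribosomal subunit it was within 2-fold of RD1 in 47 of 81 genes and within 2-fold of the mean of RD5 and RD6 in 1.

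**Figure D4:**
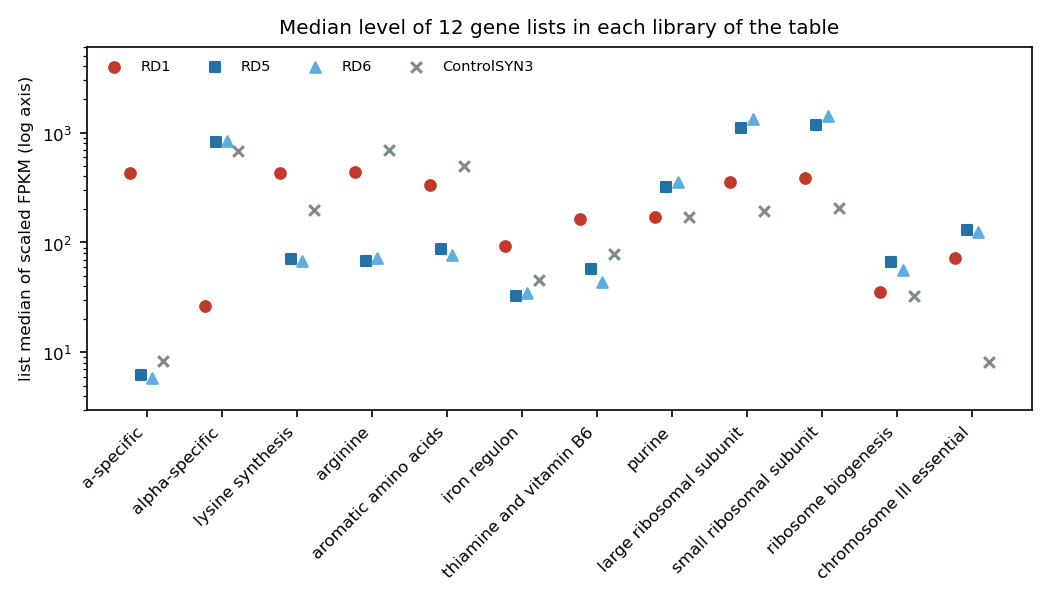
Median scaled FPKM (log axis) of 12 gene lists in RD1 (circles), RD5 (squares), RD6 (triangles) and ControlSYN3 (crosses). In the a-specific list RD1 stands at 431 and the other 3 libraries below 10, and in the chromosome III list ControlSYN3 stands at 8.25, below RD1 at 72.3.

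Rows past 2-fold were spread over the genome. The median log2 ratio of a chromosome lay between -0.0346 and 0.125 for every chromosome but III, where it was -0.78 over 15 rows. Those rows include the 13 essential genes described above, so gene function and position cannot be told apart there. Chromosome VI had the highest median, with 17 of 126 rows higher and 3 lower. There were 18 runs of at least 3 neighbouring measured genes past 2-fold in the same direction, 15 of them higher. Only some of these runs are described here. A run on chromosome IX held YIL165C, NIT1 and YIL163C, of which NIT1, a nitrilase gene, stood at 234 scaled FPKM in RD1, 38.5 and 33.5 in RD5 and RD6, and 377 in ControlSYN3 (log2 ratio 2.67). YIL165C, annotated next to it, stood at 307 scaled FPKM in RD1, 42.1 and 38.2 in RD5 and RD6, and 428 in ControlSYN3 (log2 ratio 2.90). On chromosome XIII, SNO1, SNZ1 and CTF13 formed a run, and CTF13, a kinetochore gene, stood at 37.2 scaled FPKM in RD1, 10.6 and 8.58 in RD5 and RD6, and 35.2 in ControlSYN3 (log2 ratio 1.85). Another on chromosome XIII held SIP18, a desiccation-related gene, at 241 scaled FPKM in RD1, 61.4 and 42.4 in RD5 and RD6, and 28.1 in ControlSYN3 (log2 ratio 2.19). The 3 lower runs consisted of ribosomal protein genes, with CGR1, a ribosome biogenesis gene, in the run with RPL24A and RPL30. CGR1 stood at 50.8 scaled FPKM in RD1, 155 and 139 in RD5 and RD6, and 64.4 in ControlSYN3 (log2 ratio -1.51). Neighbours that overlap or read through can share fragments, and the sources used here do not say whether the libraries kept strand.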

How the data were processed

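Polyadenylated RNA was sequenced, per the labels' protocols. The values are FPKM computed and deposited by the authors, per the file headers; the submitters' processing notes name RSEM, Bowtie2, BWA and the build R64. FPKM hold no depth, so no counting interval is given. The sources used here do not say whether strand was kept, nor how fragments of near-identical or recoded copies were assigned.

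Columns headed MD1, MD5 and MD6 were matched to the RD libraries by number, and 5770 of 5931 rows matched the R64 annotation by gene number. The lists are therefore incomplete. Members looked for without a matched row were STE50, FUS1, FIG2, KAR4, LEU2, ILV6, HIS4, GIT1, CRS5, GLK1, HXT16, CIT2, ARE1 and AGP1. FPKM were divided by median-of-ratios size factors over RD1, RD5 and RD6 (5894 rows), which were 1.04, 0.988 and 0.979, and 1.07 for ControlSYN3. Rows with a scaled mean of at least 1 were kept and 1 was added before log2 ratios were taken (Python 3.11.15, numpy 2.4.6, pandas 2.3.3; checked on simulated data). No test was run, because RD1 is 1 library.

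Named genes are the mating and marker lists, the 15 largest ratios in each direction at a mean of at least 10 FPKM, up to 4 members past 2-fold and 2 others of each further list, rows at 10 FPKM or more in RD1 and under 0.1 in RD5 and RD6 or the reverse, and members of some of the runs. A few further members were named after their values were seen. The comparison, lists and rules were chosen with earlier results of these data known. Promoters are the 500 bases before the RefSeq gene start in R64. Alternatives were FPKM as deposited, size factors over 4 libraries, a pseudocount of 0.1, no minimum, a minimum of 10, a 4-fold threshold, and leaving out RD5 or RD6.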

Additional observations from a re-analysis of the deposited data

How the results depend on the processing

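The higher rows numbered 395 and the lower rows 276. With a 4-fold threshold in place of 2-fold they numbered 95 and 18, which follows from the stricter threshold. Leaving out RD5 or RD6 gave 426 to 496 higher and 310 to 335 lower rows, the higher value of the first range and the lower of the second without RD5. FPKM as deposited gave 429 higher and 258 lower rows and moved the median of all rows to 0.072 (log2). A pseudocount of 0.1 gave 416 and 286, size factors over 4 libraries 396 and 277, no minimum 396 and 277, and a minimum of 10 FPKM 338 and 271. Of 380 named rows past 2-fold, 0 changed direction with FPKM as deposited, the pseudocount of 0.1, size factors over 4 libraries, or without RD5 or RD6. This 0 was fixed beforehand and is no measure of robustness. A row past 2-fold differs from RD5 and from RD6 in the same direction, which neither leaving out 1 of them nor a pseudocount can turn. The changes of scaling moved the median of all rows only to 0.072 and -0.0018 (log2), far less than 2-fold. Of 53 list medians 3 changed sign (branched-chain amino acids, ergosterol and amino acid permeases), each no larger than 0.195 in size. No paired analysis was possible because RD1, RD5 and RD6 are 1 group with different numbers and no test was run. RD1 itself cannot be left out. RD1 is a single library: no value here separates a difference of the RD1 strain from those of its culture, harvest or library, and these cannot be told apart. Precision at low FPKM is unknown without depth.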
